A study of Mus musculus with 18 samples.

Results

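Conventional NK cells of liver metastases (LM) were compared with those of the metastasis-free liver (MFL) of mice that carried colorectal metastases. The comparison held 6 of the 18 libraries of the series, chosen by their sorted population and site: 3 libraries of CD49a-CD49b+ NK cells from LM, called LM CD49a- NK here, and 3 libraries of CD49a-CD49b+ NK cells from MFL, called MFL NK. All came from female C57BL/6J mice that were 8 to 10 weeks old when MC38 cells, a mouse colon adenocarcinoma line, were injected into the spleen, and cells were taken on day 20. Every library was a pool of 6 to 8 samples of its site, sorting was done independently 3 times, and so the MFL NK cells were those of a tumor-bearing liver and no library stood for a single animal. Sorted cells were live, negative for lineage markers and positive for CD45 and NKp46. LM was shredded and then digested for 30 minutes with Liberase TL and DNase I at 37 °C, while MFL parenchyma was smashed and filtered without an enzyme. Site and dissociation therefore cannot be told apart in any of the differences below.

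NK cells are circulating and tissue lymphocytes that kill transformed cells with perforin and granzymes and release interferon-γ. Conventional NK cells need the transcription factors Eomes and T-bet, mature under IL-15, and leave tissues through the sphingosine receptor S1PR5, whereas ILC1 of the liver carry the integrin CD49a, stay in the tissue and lack Eomes. TGF-β, a cytokine that is abundant in many tumors, dampens NK cell function and can drive NK cells toward features of ILC1.

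Expression was measured by stranded total RNA-seq and is given as CPM, the counts scaled to library totals corrected with TMM factors. Estimated counts summed to 13169511, 13043713 and 12752209 in MFL NK replicates 1, 2 and 3 and to 9252160, 8795721 and 14386834 in LM CD49a- NK replicates 1, 2 and 3. Genes with 10 or more counts numbered 11780, 12984 and 13205 in MFL NK and 9885, 9608 and 12601 in LM CD49a- NK, so that LM replicates 1 and 2 were both the shallowest and those with the fewest genes (exact two-sided permutation test, p = 0.2, where 0.1 is the smallest that 3 libraries against 3 allow). Replicates of a group differed from each other by more than sampling noise, and p-values measure the spread between these pooled libraries. LM replicate 2 stood apart from the other LM replicates for the genes of the early response, as described below. In such bulk data, fewer cells with a transcript and less of it per cell cannot be told apart.

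The sorted cells carried the genes of conventional NK cells at both sites. Of 12 listed genes of the gate and of NK identity, 9 had a negative fold change (median log2 fold change −0.15). With edgeR's quasi-likelihood test 2 reached an unadjusted p under 0.05, both lower in LM, beside 4.02% of all tested genes. *Ncr1*, which encodes NKp46, the receptor used in the gate, had 1076, 1011 and 866 CPM in MFL NK replicates 1, 2 and 3 and 614, 790.3 and 611 CPM in LM CD49a- NK replicates 1, 2 and 3. *Itga2*, which encodes CD49b, had 364, 299 and 376 CPM in MFL and 241, 305 and 333 CPM in LM, and the libraries of the sites overlapped. *Eomes* had 563, 721 and 721 CPM in MFL and 800.2, 887 and 1147 CPM in LM, against 40.2, 13.2 and 7.58 CPM in the ILC1 libraries of MFL from the same experiment, so every NK library of both sites lay far above the ILC1. *Itga1*, which encodes CD49a, had 20.1, 6.93 and 7.41 CPM in MFL and 11.4, 17.1 and 5.83 CPM in LM, against 680.4, 664 and 646 CPM in ILC1. The ILC1 genes *Cxcr6*, *Zfp683* and *Tmem176b* stayed below 2 CPM in all 6 libraries. The gate was visible in the RNA, and the levels of *Itga1* did not separate the sites (log2 fold change −0.01, standard error (SE) 0.39, edgeR quasi-likelihood test with Benjamini-Hochberg adjustment, adjusted p = 1).

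Few genes passed the test across sites. Of 13594 genes tested with edgeR's quasi-likelihood test, 10 were called at a Benjamini-Hochberg adjusted p under 0.1 (0.0736%), of which 9 were higher (0.0662%) and 1 was lower (0.00736%) in LM CD49a- NK. Those higher encode an integrin chain (*Itgb3*), heat shock chaperones (*Hspa1a* and *Hspa1b*), a nuclear receptor of the early response (*Nr4a3*), an inhibitor of cytokine signaling (*Cish*), TGF-β1 (*Tgfb1*), carbonic anhydrase 2 (*Car2*), a partner of cyclin-dependent kinases (*Cables1*) and the product of *1700017B05Rik*. The gene that was lower is the mitochondrial *mt-Atp6*. At an unadjusted p under 0.05 there were 914 genes (6.72%), of which 368 were higher (2.71%) and 546 were lower (4.02%), and the median log2 fold change over all tested genes was −0.09. The count moved with single libraries and with the test. Without LM replicate 2 it was 82 higher and 4 lower, without LM replicate 3 it was 20 higher and 90 lower, and without LM replicate 1 or MFL replicate 2 it was 3 and 2 higher with 1 lower in each. Without MFL replicate 1 or MFL replicate 3 no gene was called higher by edgeR. Then 656 of 14435 and 627 of 14351 tested genes had an unadjusted p under 0.05. These shares are below the 0.05 that pass when no gene differs. DESeq2 on all libraries called 100 higher and 61 lower and limma-voom with sample quality weights 102 higher and 2 lower. All 10 genes were called by DESeq2 and by limma-voom as well. These and edgeR without LM replicate 2 shared 50 genes, 49 of them higher and 1 lower in LM.

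**Figure D1:**
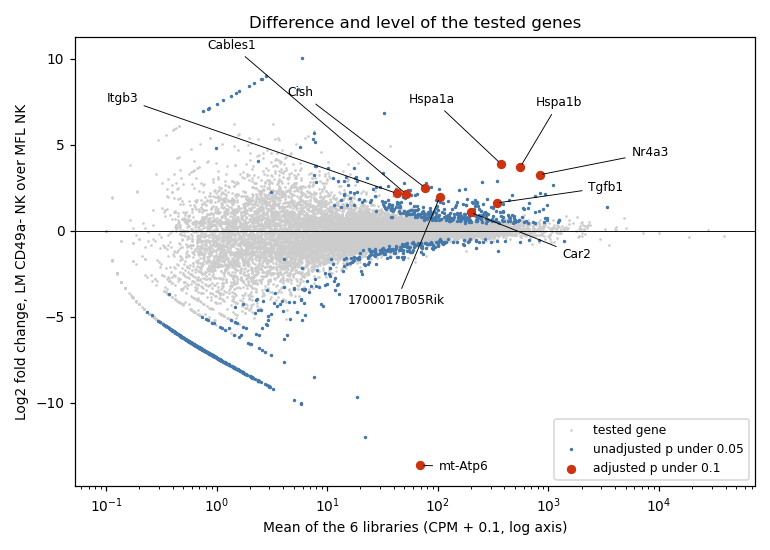
Each point is one of the 13594 tested genes, with its mean over the 6 libraries on a log axis (CPM + 0.1) against its log2 fold change (LM CD49a- NK over MFL NK). Called genes are red and named, genes at an unadjusted p under 0.05 are blue and the others gray. The 9 genes called higher lie at log2 fold changes between 1.07 and 3.90, *mt-Atp6* lies lowest, and the blue curve at the lower left holds genes with no count in the LM libraries.

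*Itgb3* (GRCm39, ENSMUSG00000020689.5, chromosome 11, 104498826 to 104561302) encodes integrin β3, which pairs with the αV chain to bind vitronectin and other matrix proteins. It had 11.3, 19.0 and 15.6 CPM in MFL NK replicates 1, 2 and 3 and 73.8, 75.3 and 58.8 CPM in LM CD49a- NK replicates 1, 2 and 3. Every LM library lay above every MFL library, with little spread at either site. *Itgb3* rose 4.53-fold (log2 fold change 2.18, SE 0.31, edgeR adjusted p = 0.0116). It was called in 13 of 16 alternative analyses, and without MFL replicate 1 or 3 or on the 6 libraries alone its adjusted p was between 0.136 and 0.339. Its partner *Itgav*, named after its values were seen, had 73.4, 109.7 and 102 CPM in MFL and 179, 80.8 and 141 CPM in LM, with overlapping libraries.

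*Hspa1a* (ENSMUSG00000091971.4, chromosome 17, 35188166 to 35191132) and *Hspa1b* (ENSMUSG00000090877.4, chromosome 17, 35175412 to 35178214) encode nearly the same inducible HSP70 chaperone, and the counting could have split reads between them, so their separate values are uncertain. *Hspa1b* had 79.2, 91.5 and 66.1 CPM in MFL NK replicates 1, 2 and 3 and 1262, 1246 and 608 CPM in LM CD49a- NK replicates 1, 2 and 3, and *Hspa1a* had 43.4, 48.3 and 48.0 CPM in MFL and 908, 863 and 316 CPM in LM. Summed, they came to 123, 139.8 and 114 CPM in MFL NK and to 2170, 2109 and 924 CPM in LM CD49a- NK, so LM replicates 1 and 2 were highest and replicate 3, although lower, lay well above every MFL library. *Hspa1b* rose 13.1-fold (log2 fold change 3.72, SE 0.58, edgeR adjusted p = 0.0201) and *Hspa1a* rose 14.9-fold (3.90, SE 0.70, adjusted p = 0.0675). With their counts summed to 1 gene before the fit, an analysis added after seeing the data, the log2 fold change was 3.79 (adjusted p = 0.0351).

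The 250 bases before the start of both genes are shown because they are almost the same, differing at 3 of 250 positions, and carry the letters of a heat shock element, the site of heat shock factors. Sequences are those of the RefSeq promoter table, placed on GRCm39 by exact match (chr17:35191133-35191382, minus strand, for *Hspa1a* and chr17:35178215-35178464, minus strand, for *Hspa1b*) and written 5′ to 3′ on the strand of the gene. Capitals mark matches to GAANNTTC or TTCNNGAA on either strand.
Hspa1a: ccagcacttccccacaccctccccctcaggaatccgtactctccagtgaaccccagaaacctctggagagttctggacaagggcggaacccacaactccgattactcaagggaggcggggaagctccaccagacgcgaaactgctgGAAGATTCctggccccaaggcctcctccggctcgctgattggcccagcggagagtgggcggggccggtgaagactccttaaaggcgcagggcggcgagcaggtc
Hspa1b: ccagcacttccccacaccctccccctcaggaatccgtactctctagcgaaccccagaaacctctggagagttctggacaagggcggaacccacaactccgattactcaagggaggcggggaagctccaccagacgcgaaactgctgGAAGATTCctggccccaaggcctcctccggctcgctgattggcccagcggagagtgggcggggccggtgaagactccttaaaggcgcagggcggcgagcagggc
Each held 1 match, which began 104 bases before the start. A match describes the letters and does not show a bound site. Of 32841 RefSeq promoters of that length, 12.8% held such a match, so the letters alone do not single out these genes.

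*Nr4a3* (ENSMUSG00000028341.10, chromosome 4, 48045153 to 48086447) encodes an orphan nuclear receptor that is induced within the first hours of lymphocyte stimulation. It had 112, 169 and 193 CPM in MFL NK replicates 1, 2 and 3 and 1357, 622 and 2546 CPM in LM CD49a- NK replicates 1, 2 and 3. All LM libraries lay above all MFL libraries, and LM replicate 3 was several times as high as LM replicate 2. *Nr4a3* rose 9.56-fold (log2 fold change 3.26, SE 0.58, edgeR adjusted p = 0.0675), with a log2 fold change of 2.64 without LM replicate 3. The stretch before its start (chr4:48045055-48045304, plus strand, of GRCm39, placed and written as above, before a RefSeq start that lies inside the GENCODE gene) is shown for its matches to TGACG on either strand, the core of a cyclic AMP response element, in capitals.
Nr4a3: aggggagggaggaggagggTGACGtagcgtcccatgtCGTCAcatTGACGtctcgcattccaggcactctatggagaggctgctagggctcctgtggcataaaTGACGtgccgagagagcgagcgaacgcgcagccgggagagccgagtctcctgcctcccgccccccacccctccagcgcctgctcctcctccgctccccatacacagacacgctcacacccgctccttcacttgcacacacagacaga
It held 4 matches, the first beginning 231 and the last 147 bases before the start, where 17.8% of all promoters held at least 1. Of the 10 called genes, 6 matched the promoter table, and none of the 6, *Cish* included, held the STAT letters TTCNNNGAA in this window, which 7.02% of all promoters did.

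*Cish* (ENSMUSG00000032578.8, chromosome 9, 107173225 to 107179983), a STAT5 target whose product restrains IL-15 signaling in NK cells, had 33.9, 13.6 and 22.02 CPM in MFL NK replicates 1, 2 and 3 and 101, 59.9 and 231 CPM in LM CD49a- NK replicates 1, 2 and 3. The sites did not overlap, and the LM libraries spread over a wider range than those of MFL. *Cish* rose 5.65-fold (log2 fold change 2.50, SE 0.45, edgeR adjusted p = 0.0675), with a log2 fold change of 1.79 without LM replicate 3. *Tgfb1* (ENSMUSG00000002603.16, chromosome 7, 25386390 to 25404506), the gene of the ligand TGF-β1, had 150.1, 183 and 170.2 CPM in MFL NK replicates 1, 2 and 3 and 476, 305 and 759 CPM in LM CD49a- NK replicates 1, 2 and 3. It was higher in each LM library and lowest among them in replicate 2, and rose 3.06-fold (1.61, SE 0.30, adjusted p = 0.0711).

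*Car2* (ENSMUSG00000027562.13, chromosome 3, 14951317 to 14967568), the gene of a carbonic anhydrase that interconverts carbon dioxide and bicarbonate, had 132, 130.1 and 121 CPM in MFL NK replicates 1, 2 and 3 and 286, 270.4 and 248 CPM in LM CD49a- NK replicates 1, 2 and 3. It had the smallest fold of the 9 genes called higher, with replicates close together, and rose 2.10-fold (log2 fold change 1.07, SE 0.20, edgeR adjusted p = 0.0711). *Cables1* encodes an adaptor between cyclin-dependent kinases and the Abl kinase and had 20.3, 20.5 and 15.8 CPM in MFL and 94.9, 107 and 49.3 CPM in LM. It rose 4.45-fold (2.15, adjusted p = 0.0711). *1700017B05Rik* (ENSMUSG00000032300.8, chromosome 9, 57160400 to 57169895) had 40.8, 39.8 and 48.1 CPM in MFL and 109, 165 and 219.7 CPM in LM and rose 3.84-fold (1.94, adjusted p = 0.0201). For both, the lowest LM library was above the highest MFL library by more than the spread within MFL.

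*mt-Atp6* (ENSMUSG00000064357.1, chromosome M, 7927 to 8607) encodes a membrane subunit of the mitochondrial ATP synthase. It had 130.0, 119 and 168 CPM in MFL NK and was listed at 0 in all 3 LM CD49a- NK libraries, so it was at least 463-fold lower against a floor of 3 counts per library (edgeR adjusted p = 1.75e-07). Its neighbors, named after their values were seen, differed less. *mt-Atp8*, which overlaps it on the genome, had 76.4, 34.9 and 32.2 CPM in MFL and 43.7, 8.09 and 57.0 CPM in LM, and *mt-Co1* had 5580.4, 2633 and 2127 CPM in MFL and 2744, 1149 and 3469 CPM in LM, with overlapping libraries for both. *mt-Atp6* was also at 0 in the 3 LM CD49a+ NK libraries and at 163, 158 and 177 CPM in ILC1, and *mt-Co2* was listed at 0 in all 12 libraries of the experiment. Whether these zeros are failed estimates was not tested.

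**Figure D2:**
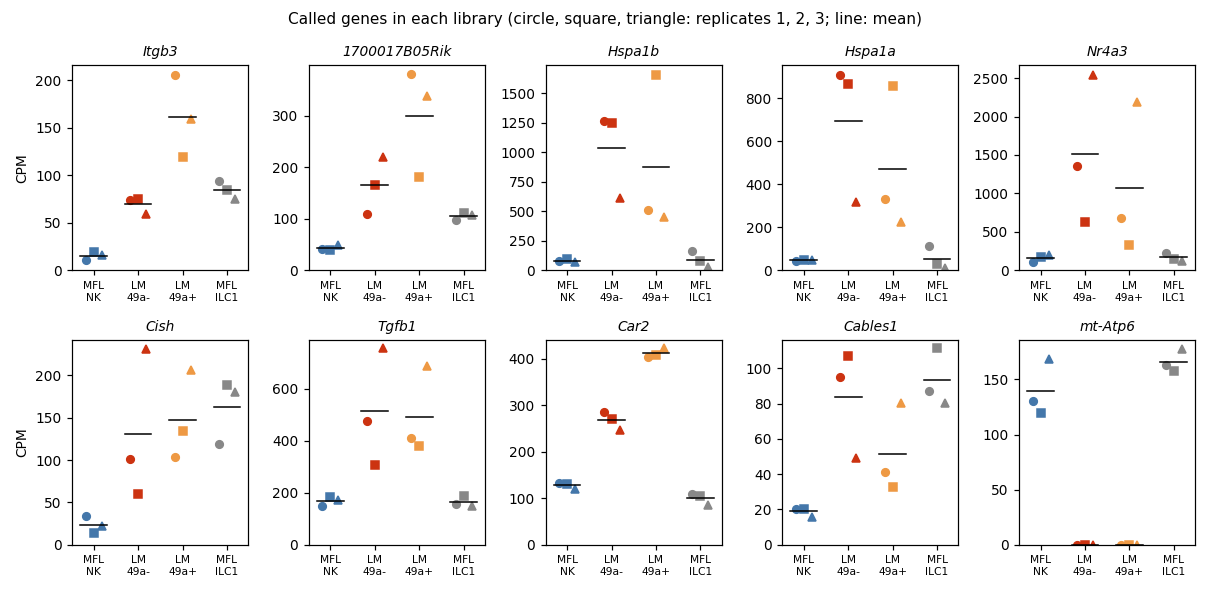
The 10 called genes in the 12 libraries of the lymphocyte experiment, as CPM on axes that start at 0. Circles, squares and triangles are replicates 1, 2 and 3 and lines are means. In each panel the 3 LM CD49a- NK libraries (red) do not overlap the 3 MFL NK libraries (blue), with *Itgb3* at 58.8 CPM or more in LM and 19.0 CPM or less in MFL.

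The called genes belonged to wider groups that were examined as gene lists. For the lists the text gives how many members reached an unadjusted p under 0.05, for most the median log2 fold change, and for some how many lay above or below. These are to be read beside 2.71% higher and 4.02% lower at that p and a median of −0.09 over all tested genes. Members named beyond the called genes and those with the highest counts of each list were chosen after their values were seen, and none of them passed the edgeR test unless an adjusted p under 0.1 is given.

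Immediate early genes, which are switched on within minutes to hours of a stimulus, were higher in LM as a group but not in every library. Of 38 genes, 37 had a positive fold change, 19 had an unadjusted p under 0.05 and none of those was lower. The median was 1.03. In LM replicates 1, 2 and 3, the median log2 distance from the MFL mean was 1.30, −0.19 and 1.503, so the difference came from replicates 1 and 3, and replicate 2 lay just below the MFL libraries (0.10, −0.06 and −0.01). *Nr4a3* alone was called by edgeR, while DESeq2 called 7, limma-voom 13 and edgeR without LM replicate 2 called 11, all higher. Over all tested genes these analyses called 100 of 13594, 102 of 13594 and 82 of 14536 higher.

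Named members show this split. *Nr4a1*, a relative of *Nr4a3*, had 325, 249.7 and 326 CPM in MFL NK replicates 1, 2 and 3 and 2049, 542 and 3145 CPM in LM CD49a- NK replicates 1, 2 and 3 (log2 fold change 2.67, edgeR adjusted p = 0.291). *Fosl2*, an AP-1 subunit, had 256, 294 and 340.5 CPM in MFL and 1245, 572 and 2314 CPM in LM (adjusted p = 0.221), and *Gadd45b*, a stress and growth arrest gene, had 19.6, 35.3 and 40.2 CPM in MFL and 122, 91.3 and 301 CPM in LM (adjusted p = 0.243). For these 3 genes even LM replicate 2 lay above all MFL libraries. For others replicate 2 lay among the MFL libraries or below them. *Junb* had 1078, 1001 and 998 CPM in MFL and 1779, 585 and 3175 CPM in LM, *Dusp5*, a phosphatase of ERK, had 564, 489 and 525 CPM in MFL and 1498, 465 and 1797 CPM in LM, and *Cd69*, an activation marker that holds lymphocytes in tissues, had 183, 185 and 140.0 CPM in MFL and 540.1, 141 and 403 CPM in LM. *Btg1*, an antiproliferative gene, had 1159, 1327 and 1467 CPM in MFL and 1793, 764 and 2662 CPM in LM. The AP-1 genes *Fos* and *Jun* were uneven. *Fos* had 525, 594 and 366 CPM in MFL and 884, 285 and 357 CPM in LM (log2 fold change 0.04), and *Jun* had 1302, 1002 and 848 CPM in MFL and 1975, 1084 and 992 CPM in LM (0.36), with overlap for both.

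NF-κB and TNF family genes followed the same libraries. Of 27 genes, 23 had a positive fold change, 15 had an unadjusted p under 0.05, all higher, and the median was 0.89, with 1.01, 0.06 and 1.47 in LM replicates 1, 2 and 3. Without LM replicate 3 the list median was 0.56. *Tnfaip3*, the inhibitor A20 that NF-κB induces, had 2214, 1609 and 1790.3 CPM in MFL NK replicates 1, 2 and 3 and 5959, 1505 and 7163 CPM in LM CD49a- NK replicates 1, 2 and 3 (log2 fold change 1.38, edgeR adjusted p = 0.723). *Nfkbia*, the inhibitor IκBα, had 481, 319.7 and 312 CPM in MFL and 879.7, 379 and 1549 CPM in LM, and *Icam1*, an adhesion molecule, had 163, 201 and 172 CPM in MFL and 514, 198 and 1548 CPM in LM. In all 3, replicate 3 was highest and LM replicate 2 lay within the MFL range or, for *Tnfaip3*, below it. *Tnfrsf1b*, which encodes TNF receptor 2, had 150.3, 186 and 173 CPM in MFL and 501, 333 and 469 CPM in LM and *Nfkb2* had 98.3, 109 and 118 CPM in MFL and 397, 128 and 474 CPM in LM, without overlap (adjusted p = 0.243 and 0.221). With edgeR none of the 27 was called, with DESeq2 5 were, with limma-voom 9 and with edgeR without LM replicate 2 10, all of them higher. Over all tested genes the last 3 analyses called 100 of 13594, 102 of 13594 and 82 of 14536 higher.

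**Figure D3:**
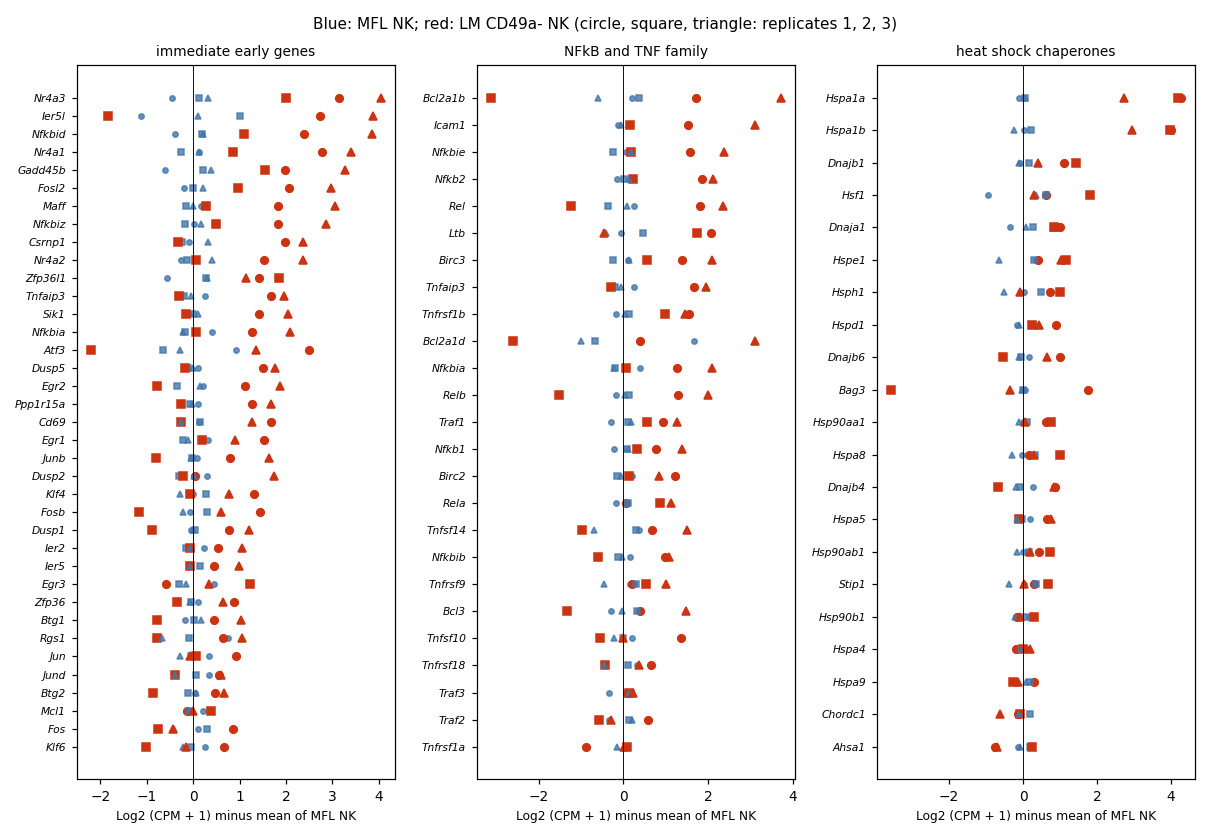
Members of 3 lists with a mean of at least 5 CPM (37 immediate early, 25 NF-κB and TNF family and 21 heat shock genes), as log2 (CPM + 1) minus the mean of MFL NK for each library. Blue symbols are MFL NK, red symbols LM CD49a- NK, and circles, squares and triangles replicates 1, 2 and 3. In the first 2 panels red squares mostly lie near 0 while red circles and triangles lie to the right, and for *Hspa1a* and *Hspa1b* all red symbols lie to the right.

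Heat shock chaperones were mostly higher, by less than the early genes. Both called members are described above. Of 21 genes, 18 had a positive fold change and 6 reached an unadjusted p under 0.05, all higher, with a median of 0.50 and library medians of 0.64, 0.68 and 0.28. Here LM replicates 1 and 2 were highest, unlike the early response. The cochaperone *Dnaja1* had 202, 314 and 276 CPM in MFL and 524, 469 and 468 CPM in LM (edgeR adjusted p = 0.383), and *Dnajb1*, another cochaperone of HSP70, had 91.3, 108 and 90.0 CPM in MFL and 210.2, 263 and 129 CPM in LM (adjusted p = 0.501). The constitutive chaperones differed less: *Hsp90ab1* had 1658, 1857 and 1495 CPM in MFL and 2239.7, 2741 and 1902 CPM in LM (log2 fold change 0.46, adjusted p = 0.747), *Hspa8* had 1890.3, 2377 and 1549.8 CPM in MFL and 2129, 3783 and 2325 CPM in LM and *Hsp90aa1* had 749, 817 and 694 CPM in MFL and 1154, 1260.3 and 786 CPM in LM. *Hspa5*, of the endoplasmic reticulum, had 785, 680.1 and 616 CPM in MFL and 1087, 635 and 1156 CPM in LM. The list for the unfolded protein response had a median of 0.02 over 19 genes, 2 of which reached an unadjusted p under 0.05.

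The TGF-β group held 2 called genes. Of 27 genes, 19 had a positive fold change and 9 had an unadjusted p under 0.05, all higher. For 8 of the 27 (29.6%) the LM libraries lay entirely above MFL, against 4.27% of all tested genes, and the median was 0.62. Beside *Tgfb1* and *Car2*, the genes with the smallest p encode parts of the feedback on the pathway. *Smad7*, the inhibitory SMAD, had 121, 126 and 120.2 CPM in MFL NK replicates 1, 2 and 3 and 415, 198 and 695 CPM in LM CD49a- NK replicates 1, 2 and 3 (log2 fold change 1.83, edgeR adjusted p = 0.243). *Skil*, the corepressor SnoN, had 155, 203 and 228 CPM in MFL and 698, 287 and 1053 CPM in LM (1.80, adjusted p = 0.297), *Ski* had 167, 196 and 176 CPM in MFL and 251, 295 and 281 CPM in LM, and *Tgif1*, another corepressor, had 35.7, 64.4 and 66.8 CPM in MFL and 209, 112 and 560.1 CPM in LM. *Pmepa1*, a TGF-β target that dampens SMAD signaling, had 1.80, 9.14 and 3.45 CPM in MFL and 7.58, 31.4 and 82.9 CPM in LM, with overlap. DESeq2 called *Smad7*, *Skil* and *Pmepa1*, with adjusted p-values of 0.00368, 0.00962 and 0.00431. The receptors and receptor-activated SMADs overlapped between the sites: *Tgfbr2* had 163, 168 and 148 CPM in MFL and 151, 189.9 and 183 CPM in LM and *Smad3* had 398, 426 and 447 CPM in MFL and 493, 349 and 460.1 CPM in LM. *Bhlhe40* and *Junb*, the members with the highest counts, overlapped between sites, and *Id2* had 577, 523 and 511 CPM in MFL and 336, 349 and 664 CPM in LM. As with the early response, LM replicate 2 was lowest, with library medians of 0.80, −0.03 and 0.65. The list median was 0.22 without LM replicate 1 and 0.33 without LM replicate 3.

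Cytokine signaling genes were mostly higher as well. In the list of IL-15, IL-12 and IL-18 signaling, 24 of 28 genes had a positive fold change and 8 had an unadjusted p under 0.05, all higher. For 10 of the 28 (35.7%) all LM libraries lay above MFL, against 4.27% of all tested genes, and none lay wholly below. The median was 0.37, with library medians of 0.42, 0.25 and 0.58. Besides *Cish*, the inhibitor *Socs3* had 69.1, 98.7 and 116 CPM in MFL and 254, 148 and 389 CPM in LM, and *Socs1* had 36.7, 39.8 and 40.2 CPM in MFL and 119, 75.7 and 50.0 CPM in LM. *Stat3* had 326, 343 and 324 CPM in MFL NK replicates 1, 2 and 3 and 814, 516 and 1182 CPM in LM CD49a- NK replicates 1, 2 and 3 (log2 fold change 1.34, edgeR adjusted p = 0.243, DESeq2 adjusted p = 0.00274). *Bcl2l11*, the proapoptotic BIM, had 209, 234 and 305 CPM in MFL and 491, 315 and 774 CPM in LM. The receptor chain *Il2rb*, shared by IL-2 and IL-15, had 1979, 2129 and 1961 CPM in MFL and 2479.6, 2453 and 2755 CPM in LM (log2 fold change 0.34, adjusted p = 0.816), a small difference without overlap. *Il18rap* and *Jak1* overlapped between the sites.

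Genes of NK cell maturation and egress leaned the other way and none was called. Of 20 genes, 17 had a negative fold change and 2 had an unadjusted p under 0.05, both lower. For 6 of the 20 (30%) all LM libraries lay below MFL, against 12% of all tested genes. The median was −0.48, with library medians of −0.52, −0.50 and −0.53, while the MFL libraries spread over 0.26, −0.11 and −0.24. Without MFL replicate 1 the list median was −0.27. *Zeb2*, a factor of terminal maturation, had 689, 602 and 728 CPM in MFL NK replicates 1, 2 and 3 and 415, 433 and 458 CPM in LM CD49a- NK replicates 1, 2 and 3 (log2 fold change −0.63, edgeR adjusted p = 0.742). *S1pr5*, the egress receptor, had 285, 255 and 209.7 CPM in MFL and 42.0, 201 and 82.1 CPM in LM (−1.21, adjusted p = 0.808), *Cx3cr1*, the fractalkine receptor of mature cells, had 138, 80.3 and 73.3 CPM in MFL and 20.9, 18.7 and 43.5 CPM in LM (−1.81, adjusted p = 0.796), and *Klrg1*, a receptor of late maturation, had 148, 79.2 and 63.5 CPM in MFL and 23.8, 52.8 and 60.7 CPM in LM (−1.08, adjusted p = 0.820). For these 4 genes every LM library lay below every MFL library. *Itgam*, which encodes CD11b, had 1165, 866 and 776 CPM in MFL and 921, 758 and 821 CPM in LM, and *Ahnak* had 9685, 6367 and 6565 CPM in MFL and 8749.9, 6669 and 5009 CPM in LM, both with overlap. *Klf2*, which drives *S1pr* genes, had 1271, 1098 and 887 CPM in MFL and 1454, 461 and 771 CPM in LM, with the lowest value in LM replicate 2.

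Genes of immature NK cells and of liver ILC1 were more often higher. Of 16 genes of immature NK cells, 15 had a positive fold change and 5 had an unadjusted p under 0.05, all higher (median 0.65). *Tcf7*, a factor of less differentiated cells, had 146, 203 and 179 CPM in MFL and 293, 349.7 and 199 CPM in LM (log2 fold change 0.67, edgeR adjusted p = 0.768), *Emb*, an adhesion glycoprotein, had 33.8, 94.5 and 103 CPM in MFL and 277, 135 and 237 CPM in LM, *Il7r*, the IL-7 receptor, had 5.96, 6.19 and 6.02 CPM in MFL and 19.4, 22.8 and 8.59 CPM in LM, and *Ly6e* had 133, 154 and 126 CPM in MFL and 134, 294 and 128 CPM in LM. Of 20 liver ILC1 genes, 15 had a positive fold change and 8 an unadjusted p under 0.05, all higher (median 0.89). Their library medians of 0.80, −0.68 and 0.80 differed in sign between replicate 2 and the others, and the list median was 0.48 without LM replicate 1. *Itgb3* was the called member. *Ahr*, the aryl hydrocarbon receptor, had 5.47, 17.1 and 8.88 CPM in MFL NK replicates 1, 2 and 3 and 41.8, 71.1 and 17.6 CPM in LM CD49a- NK replicates 1, 2 and 3 (log2 fold change 2.05, edgeR adjusted p = 0.243, DESeq2 adjusted p = 0.00572), and *Xcl1*, a chemokine for dendritic cells, had 16.0, 26.1 and 15.6 CPM in MFL and 36.7, 32.6 and 73.3 CPM in LM. The genes that define ILC1 most sharply were not part of this, as the levels of *Itga1*, *Cxcr6* and *Zfp683* above show, and *Rgs1* had 933, 520.4 and 347 CPM in MFL and 859.7, 322 and 1139 CPM in LM.

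**Figure D4:**
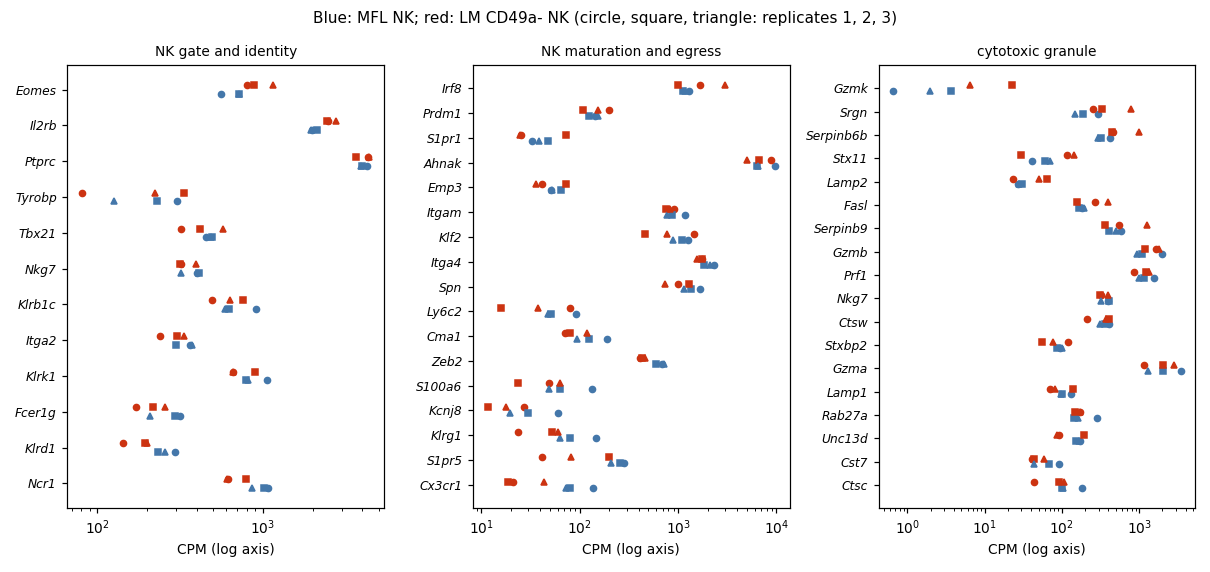
Members of 3 lists with a mean of at least 5 CPM (12 identity, 17 maturation and egress and 18 cytotoxic granule genes), as CPM on log axes, with blue for MFL NK, red for LM CD49a- NK and circles, squares and triangles for replicates 1, 2 and 3. *Eomes* is above and *Ncr1* below MFL in every LM library, *Cx3cr1*, *S1pr5*, *Klrg1* and *Zeb2* are below, and *Gzmb*, *Prf1* and *Gzma* overlap.

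The main cytotoxic genes overlapped between the sites. *Gzmb* had 2012, 1089.5 and 935 CPM in MFL NK replicates 1, 2 and 3 and 1643, 1188 and 1817 CPM in LM CD49a- NK replicates 1, 2 and 3 (log2 fold change 0.20, SE 0.27, edgeR adjusted p = 0.983). *Gzma* had 3472, 2069.6 and 1293 CPM in MFL and 1173, 2043 and 2862 CPM in LM and *Prf1*, which encodes perforin, had 1571, 1171 and 994 CPM in MFL and 865, 1214 and 1349 CPM in LM. In MFL these genes were highest in replicate 1, and in LM they were highest in replicate 3. Of 20 cytotoxic granule genes, 9 had a positive and 11 a negative fold change, with a median of −0.13, and 4 had an unadjusted p under 0.05, all higher, namely *Srgn*, *Gzmc*, *Serpinb6b* and *Fasl*. *Srgn*, the proteoglycan of the granule, had 293, 188 and 146 CPM in MFL and 255, 331 and 792 CPM in LM, *Gzmc*, a granzyme, had 1.06, 1.03 and 1.03 CPM in MFL and 9.36, 0.222 and 5.199 CPM in LM and *Fasl*, the death ligand, had 179.9, 169 and 196 CPM in MFL and 265, 159 and 396 CPM in LM. Among the cytokines and chemokines, *Ifng* had 169, 184 and 158 CPM in MFL and 282, 48.4 and 254 CPM in LM, *Ccl5* had 2994, 2049 and 1602 CPM in MFL and 1555, 1769 and 2092 CPM in LM and *Ccl3* had 336, 285 and 291 CPM in MFL and 219, 60.3 and 427 CPM in LM, with overlap for each. The list had 3 of 19 genes at an unadjusted p under 0.05, all higher, including the called *Tgfb1* (median 0.07).

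No receptor gene of the following lists was called by edgeR with all libraries. The only call was *Cish*, which encodes an inhibitor of signaling and was kept in the list of inhibitory genes. In that list limma-voom also called *Klrb1b* higher and edgeR without LM replicate 2 *Lilrb4a*. Over all tested genes these 2 analyses called 102 of 13594 and 82 of 14536 higher. Of 25 activating receptors and adaptors, 3 reached an unadjusted p under 0.05 and all 3 were lower: *Cd244a*, which encodes 2B4, had 336, 294 and 319 CPM in MFL and 183, 192 and 216 CPM in LM, *Sh2d1b1*, its adaptor EAT-2, had 66.0, 41.0 and 35.9 CPM in MFL and 17.6, 27.9 and 23.1 CPM in LM, and *Ncr1* is given above (log2 fold change −0.55, edgeR adjusted p = 0.723). *Klrk1*, which encodes NKG2D, had 1053, 789 and 816 CPM in MFL and 662, 904 and 659 CPM in LM, and *Klrb1c*, which encodes NK1.1, had 908, 629 and 591 CPM in MFL and 490.1, 757 and 637 CPM in LM. Of 20 inhibitory and checkpoint genes, 3 were higher and 1 was lower at that p (median 0.31). *Tigit* had 89.6, 32.0 and 38.0 CPM in MFL and 105, 55.8 and 122 CPM in LM, *Klrc1*, which encodes NKG2A, had 270.3, 246 and 189.6 CPM in MFL and 228, 316 and 233 CPM in LM, *Klre1* had 283, 264 and 193 CPM in MFL and 219, 237 and 318 CPM in LM and *Cblb*, a ubiquitin ligase that restrains activation, had 325, 282 and 337 CPM in MFL and 501, 371 and 440.0 CPM in LM. *Pdcd1* had no count in any of the 6 libraries. Ly49 genes belong to a family of near-identical neighbors and are uncertain one by one. Their list was not made of Ly49 genes alone, as it also held *Klri2*, a lectin-like receptor gene outside that family (log2 fold change 0.02). Of the 12 tested genes of this mixed list, 10 had a negative fold change and 1 reached an unadjusted p under 0.05 (median −0.26). *Klra8* had 496, 409.7 and 453 CPM in MFL and 314, 318 and 531 CPM in LM.

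Among chemokine receptors and trafficking genes, 4 of 21 reached an unadjusted p under 0.05, all higher (median 0.12). *Rgs16*, a brake on G protein signaling, had 12.7, 25.3 and 15.8 CPM in MFL and 93.4, 21.5 and 164 CPM in LM, and *Cxcr4*, the receptor for CXCL12, had 140.0, 54.2 and 46.7 CPM in MFL and 169.8, 139.7 and 561 CPM in LM (log2 fold change 1.85, edgeR adjusted p = 0.714). *Cxcr3*, a receptor for interferon-induced chemokines, had 14.5, 21.5 and 13.9 CPM in MFL and 5.35, 22.8 and 6.14 CPM in LM, so LM replicate 2 lay just above the highest MFL library and the other LM replicates lay below. *Selplg*, the adhesion ligand PSGL-1, had 870.1, 889.7 and 713 CPM in MFL and 902, 1286 and 899 CPM in LM. Of 21 integrin and adhesion genes, 4 were higher at an unadjusted p under 0.05, namely *Itgb3*, *Icam1*, *Emb* and *Cd44*, and 1, *Itgb2*, was lower. *Cd44*, the hyaluronan receptor, had 172, 212 and 183 CPM in MFL and 266, 392 and 241 CPM in LM. *Itgb2*, the β2 chain, had 1908, 1698 and 1459 CPM in MFL and 907, 931 and 1462 CPM in LM (log2 fold change −0.62, adjusted p = 0.723), *Itgal*, which encodes LFA-1 α, had 1537, 1432 and 1164 CPM in MFL and 1164, 1496 and 1053 CPM in LM, and *Itga4* had 2329, 1826 and 2137 CPM in MFL and 1763, 1757 and 1544 CPM in LM. The list had 10 genes with a positive and 11 with a negative fold change.

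Of the 3 lineage factors with the highest counts, *Eomes*, given above, was higher in every LM library without passing the test (edgeR adjusted p = 0.938), and the others overlapped, with *Ets1* at 1194, 1039 and 1002 CPM in MFL and 1078, 987 and 1144 CPM in LM and *Irf8* at 1297, 1135 and 1176 CPM in MFL and 1667, 1004 and 2969.9 CPM in LM. Of 26 lineage factors, 17 had a positive fold change, 2 were higher and 1 lower at an unadjusted p under 0.05 (median 0.38). *Runx3* had 314, 479.5 and 434 CPM in MFL and 545, 716 and 581 CPM in LM, and *Ikzf3*, which encodes Aiolos, had 780.1, 806 and 815 CPM in MFL and 607, 578 and 459 CPM in LM, both without overlap.

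Cell cycle genes mostly had negative fold changes and none was called. Of 47, 37 had a negative fold change and 3 had an unadjusted p under 0.05, all lower, beside 4.02% of all tested genes. For 12 of the 47 (25.5%) all LM libraries lay below MFL, against 12% of all tested genes (median −0.42, library medians −0.62, −0.51 and −0.64). *Bub1b*, of the spindle checkpoint, had 19.0, 20.3 and 21.5 CPM in MFL and 2.45, 0 and 5.36 CPM in LM, *Mcm7*, of the replication helicase, had 76.3, 69.8 and 71.7 CPM in MFL and 41.4, 44.6 and 44.0 CPM in LM, and *Ccnd3*, a G1 cyclin, had 419, 436 and 397 CPM in MFL and 232, 372 and 217 CPM in LM (edgeR adjusted p = 0.699, 0.723 and 0.723). Other members overlapped between the sites: *Mki67* had 224, 287 and 335 CPM in MFL and 396, 374 and 179 CPM in LM, *Top2a* had 102, 131 and 119 CPM in MFL and 101, 249.8 and 92.6 CPM in LM, *Hmgb2* had 346, 340.1 and 303 CPM in MFL and 371, 336 and 393 CPM in LM and *Ccnd2* had 755, 738 and 660.3 CPM in MFL and 463, 860.1 and 632 CPM in LM. Over tested genes with a mean of at least 5 CPM, the median log2 fold change was −0.01.

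No interferon, glycolysis or MHC class I gene was called by edgeR with all libraries. DESeq2 called *Ifi44* and *H2-Q7* higher, limma-voom *Vegfa* and *H2-Q7*, and edgeR without LM replicate 2 *Vegfa*. Over all tested genes these analyses called 100 of 13594, 102 of 13594 and 82 of 14536 higher. Of 47 type I interferon response genes, 3 were higher and 1 lower at an unadjusted p under 0.05 (median 0.10), *Irf1* had 287, 278 and 269 CPM in MFL and 414, 238 and 435 CPM in LM, and *Sp100* had 501, 541 and 593 CPM in MFL and 658, 550.5 and 359 CPM in LM. Of 32 genes of glycolysis and hypoxia, 3 were higher and 1 was lower at that p, 5 lay wholly above MFL and 2 wholly below, beside 4.27% and 12% of all tested genes (median 0.17). *Vegfa*, the angiogenic factor, had 60.2, 74.7 and 108 CPM in MFL NK replicates 1, 2 and 3 and 519, 96.9 and 1216 CPM in LM CD49a- NK replicates 1, 2 and 3 (log2 fold change 2.91, edgeR adjusted p = 0.330), with LM replicate 2 within MFL. *Hif1a* had 85.1, 103 and 93.1 CPM in MFL and 157, 144 and 176 CPM in LM, without overlap, while the glycolytic enzyme *Pfkp* had 318, 366 and 394 CPM in MFL and 343, 409 and 505 CPM in LM and *Eno1* had 495, 394 and 290.2 CPM in MFL and 275, 557 and 287 CPM in LM. Of 18 MHC class I genes, 2 reached an unadjusted p under 0.05, both higher (median 0.13), and *H2-Q7* had 852, 1126 and 991 CPM in MFL and 1473, 1156 and 1947 CPM in LM, while *H2-K1* and *H2-D1* overlapped.

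**Figure D5:**
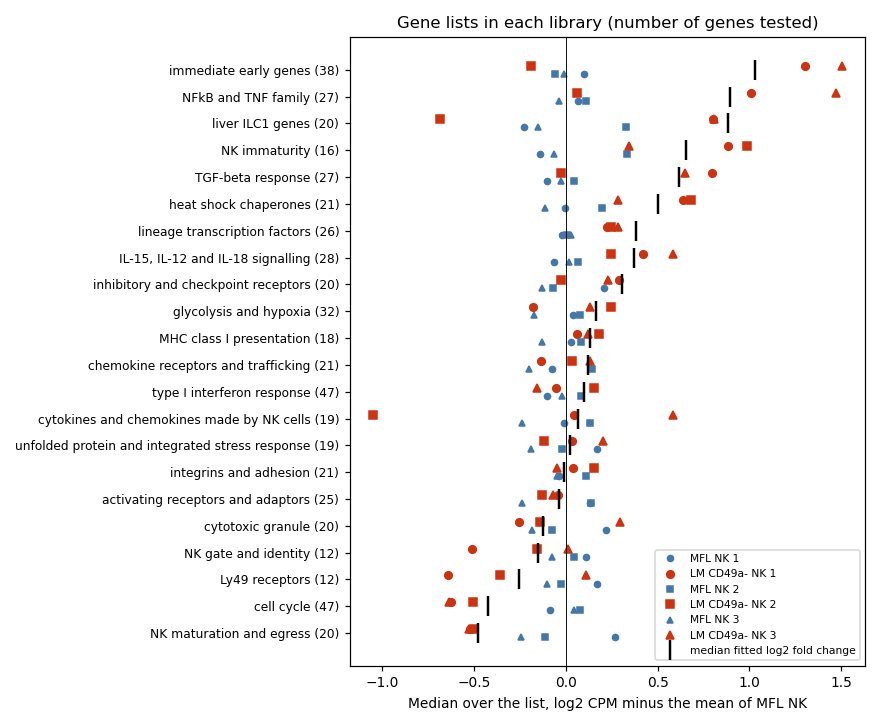
For each of 22 gene lists (number of tested genes in brackets), symbols give the median over its members of log2 CPM minus the mean of MFL NK in each library, with blue for MFL NK, red for LM CD49a- NK and circles, squares and triangles for replicates 1, 2 and 3, and black bars the median fitted log2 fold change. At the top, immediate early genes lie at 1.30 and 1.503 in LM replicates 1 and 3 and at −0.19 in replicate 2. At the bottom, maturation and egress genes lie between −0.50 and −0.53 in all 3.

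Among the genes that came closest to a call on the higher side were *Tex2*, a lipid transfer protein of endoplasmic reticulum contact sites, with 42.6, 44.9 and 44.7 CPM in MFL and 201, 96.6 and 166 CPM in LM (edgeR adjusted p = 0.168), *Cemip2*, a hyaluronidase of the cell surface, with 87.3, 71.3 and 54.9 CPM in MFL and 322, 135 and 226 CPM in LM (0.174), and *Pde4d*, a phosphodiesterase that degrades cyclic AMP, with 3.67, 6.19 and 7.49 CPM in MFL and 108, 9.42 and 57.9 CPM in LM (0.206). That none overlapped between the sites was a condition for naming them. DESeq2, limma-voom and edgeR without LM replicate 2 each called all 3. On the lower side, *Klf3*, a repressor of the Krüppel-like family, had 291, 274 and 314 CPM in MFL NK replicates 1, 2 and 3 and 153, 129 and 156 CPM in LM CD49a- NK replicates 1, 2 and 3 (log2 fold change −1.004, SE 0.23, edgeR adjusted p = 0.243). Its replicates were tight and its fold close to that of *Car2* in the other direction. *Ubash3a*, a suppressor of lymphocyte receptor signaling, had 43.6, 57.1 and 41.0 CPM in MFL and 24.3, 28.1 and 12.9 CPM in LM, and the transcription factor *Zbtb14* had 49.9, 41.9 and 38.2 CPM in MFL and 10.1, 12.9 and 11.1 CPM in LM. *Mak16*, of ribosome assembly, had 94.9, 73.3 and 70.1 CPM in MFL and 19.3, 48.0 and 33.7 CPM in LM, *Kti12* 23.1, 23.8 and 19.0 CPM in MFL and 3.23, 0.775 and 3.39 CPM in LM, and *Eif4enif1*, a partner of the cap-binding protein, 97.1, 93.7 and 96.7 CPM in MFL and 59.5, 37.002 and 45.5 CPM in LM. *H4c4*, a histone gene, had 83.9, 77.3 and 47.4 CPM in MFL and 25.6, 17.6 and 29.8 CPM in LM, and the kinesin *Kif20b* 34.5, 39.2 and 45.9 CPM in MFL and 12.03, 16.2 and 14.7 CPM in LM. That the LM libraries of all these genes lay below MFL was a condition for naming them and is not a result. Of all tested genes, 12% met it.

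The remaining leading genes on the lower side are those of hepatocytes, the cells around MFL lymphocytes. *Alb*, which encodes albumin, had 72.4, 24.4 and 12.99 CPM in MFL NK, with 887, 331 and 177 counts, and 1, 0 and 0 counts in LM CD49a- NK (edgeR adjusted p = 0.126). *Hpx*, which encodes hemopexin, had 374, 32 and 21 counts in MFL and none in LM, with most of them in MFL replicate 1, and complement *C3* had 447, 76 and 43 counts against 0, 0 and 1. Of 20 hepatocyte markers 12 were tested, of which 8 (66.7%) lay wholly below MFL, against 12% of all tested genes, and 4 overlapped. The summed level of all 20 was 273, 69.9 and 38.0 CPM in MFL NK and 88.9, 18.6 and 35.4 CPM in LM CD49a- NK. *Trf*, also made elsewhere, held most of the LM sum (62.1, 18.6 and 35.3 CPM), and *Fgg*, *Ahsg*, *Serpina3k* and *Fga* were at 0 in LM. In LM replicate 1 other markers of the list were counted beside *Trf*. DESeq2 called 5 of the hepatocyte markers lower, and 61 of all 13594 tested genes. Macrophage markers summed to 68.6, 33.8 and 21.9 CPM in MFL and 0, 40.8 and 13.6 CPM in LM over 16 genes, 6 of them tested, and 8 Kupffer cell markers, 2 of them tested, to 6.12, 7.002 and 1.17 CPM against 0 in each LM library. T cell markers, which include receptor transcripts that NK cells share, summed to 217, 348 and 352 CPM in MFL and 332, 286 and 393 CPM in LM over 15 genes, 10 of them tested, and *Cd3e*, which was not tested, had 0, 6 and 19 counts in MFL and 0 in every LM library. B cell, dendritic cell, monocyte and neutrophil, tumor epithelium, endothelium and stroma, and erythroid and platelet lists had 3, 5, 5, 3, 4 and 6 tested genes, and their sums overlapped between the sites. Only the Kupffer sums did not overlap (two-sided exact test over permuted libraries, p = 0.1, which 3 against 3 cannot go below), while p was 0.4 for hepatocytes, 0.3 for macrophages and 0.7 for T cells. The part of such transcripts in the differences was not tested.

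In the other NK population of the metastases, LM CD49a+ NK, the genes called higher also lay above MFL NK. *Itgb3* had 206, 119 and 159.6 CPM, *Nr4a3* 682, 324 and 2187 CPM, *Hspa1b* 514, 1654 and 454 CPM, *Cish* 103, 134 and 206 CPM, *Tgfb1* 409, 381 and 689 CPM and *Car2* 403, 409 and 424 CPM in replicates 1, 2 and 3. Every one of these libraries lay above all MFL NK libraries. *Nr4a3* was lowest in replicate 2 and highest in replicate 3 of both LM populations, so their values are not taken as independent of each other. Between LM CD49a+ and LM CD49a- NK, none of the 10 called genes passed the edgeR test, with the lowest adjusted p at 0.226 for *Itgb3* (log2 fold change 1.22) and 0.321 for *Car2* (0.62), both higher in LM CD49a+ NK, which does not show that the populations were alike. In ILC1 of MFL, *Itgb3* had 93.6, 84.7 and 74.5 CPM, *Cish* 119, 189 and 180.2 CPM and *Cables1* 87.4, 112 and 80.6 CPM, above all MFL NK libraries, while *Tgfb1* (157, 186 and 149 CPM) and *Nr4a3* (229, 151 and 121 CPM) overlapped them and *Car2* (110.02, 104 and 85.6 CPM) lay below them.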

How the data were processed

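The authors sorted type 1 lymphocytes from pooled LM or MFL samples, made stranded total RNA libraries, trimmed reads with Trim Galore and assigned them to GENCODE transcripts of GRCm39 with Salmon 1.5.0, and deposited estimated counts, summed from transcripts to genes and not normalized. Here these expected counts were rounded to whole numbers, and symbols came from GENCODE vM39, where 53700 of 54309 IDs were found. edgeR 4.0.16 (R 4.3.3) kept 13594 genes with filterByExpr, scaled libraries by TMM and fitted the 12 lymphocyte libraries in 4 groups, and the contrast of LM CD49a- NK with MFL NK was tested by the quasi-likelihood F test with Benjamini-Hochberg adjustment over all tested genes and called at an adjusted p under 0.1. The standard error is the log2 fold change divided by the square root of F and is approximate. A floor of 3 counts per library stands for 0 and covers counting error only. DESeq2 1.42.0 and limma 3.58.1 (voom with sample quality weights), other scalings and filters, a replicate block and leaving out each of the 6 libraries were alternatives. The procedure was also run on simulated counts drawn independently for each library, with an outcome that is not given here. Such a run cannot show how the test behaves if libraries are linked. Genes named in the text are, in each direction, the 12 with the largest fold change among called genes that average 5 CPM or more and do not overlap, filled up by unadjusted p, every called member of a list, the 3 members with the highest counts of lists with fewer than 3 called genes, and *Itga1*, *Itga2* and *Ncr1*. The comparison and the gene lists were chosen with earlier results of these data known. Exact permutation tests of per-library values were two-sided. The total counts per library were 8795721 to 14386834. Between LM CD49a- NK and MFL NK, libraries with the same replicate number did not deviate together (correlations −0.0084, −0.017 and 0.098), so the numbers were not taken as pairs. With 3 libraries per group, these correlations cannot show whether libraries of both sites came from a shared sorting. Such correlations were not computed within a site. Summed immediate early genes were lowest in replicate 2 of both LM CD49a- NK (34603.8, 13461.5 and 44480.7 CPM) and LM CD49a+ NK (24872.8, 10954.2 and 38240.7 CPM). Whether libraries of a site are linked was not tested, and the fit treated them as independent. Mitochondrial, ribosomal RNA and small RNA genes held 3.68% to 13.4% of the counts. Macrophage libraries of the series were not used. Plots were drawn with Python 3.11.15 and matplotlib 3.10.9. Some genes that the rule names are not reported here.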

Additional observations from a re-analysis of the deposited data

How the results depend on the processing

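The number of genes called, and whether more were higher or lower, depended on the analysis. Against 9 genes higher and 1 lower with all libraries, DESeq2 called 100 higher and 61 lower, limma-voom with sample quality weights 102 higher and 2 lower, and edgeR without a low-count filter 133 higher and 25 lower, while edgeR on the 6 libraries alone called 2 higher and an adjusted p under 0.05 left 3 higher. Library size alone as the scaling gave 2 lower, removing mitochondrial, ribosomal RNA and small RNA genes gave 0 lower by edgeR, where 908 genes passed an unadjusted p of 0.05, and 61 lower by DESeq2 on all genes. The replicate numbers were not taken as pairs, and with them as a replicate block 13 genes were higher and 2 lower. Leaving out each library gave 0 to 82 genes higher and 1 to 90 lower, with 0 higher without MFL replicate 1 or 3, 2 without MFL replicate 2, 3 without LM replicate 1, 20 without LM replicate 3 and 82 without LM replicate 2, and with 90 lower without LM replicate 3. Such fits keep more genes, 14351 to 14536. *mt-Atp6* stayed called in 15 of the 16 alternatives, the other removing it from the counts, *Hspa1b* in 14, *Itgb3* in 13, *1700017B05Rik* and *Hspa1a* in 12, *Nr4a3*, *Cish* and *Cables1* in 11, *Tgfb1* in 10 and *Car2* in 9. Of 433 values of named genes under alternatives, 356 kept their direction and side of the threshold, 30 passed it anew, 41 no longer passed it and 6 changed sign. All 6 were of *Itga1*, whose log2 fold change was −0.01 and became 0.0485 with DESeq2, 0.155 with limma-voom, 0.0470 with RLE size factors and 0.0206 with the replicate block, and ranged from −0.43 to 0.66 when each library was left out, with 0.29 without LM replicate 3 and 0.66 without MFL replicate 1. The cause of these changes was not tested. Of 352 list medians, 300 moved by no more than the standard deviation of the 3 LM library medians of the same list. Lists with uneven LM libraries pass this more easily, so the count does not measure how stable a list was.
Of the tested genes, 549 had no count in any LM CD49a- NK library, 212 of which were counted in every MFL NK library, and 60 had none in any MFL NK library. The part of depth in these zeros was not tested, and LM replicate 3 was the deepest of the 6 libraries.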

Other observations

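DESeq2, limma-voom and edgeR without LM replicate 2 shared 50 called genes, and 49 of them were higher in LM CD49a- NK. These analyses use the same libraries and are not independent of each other. Members that belong to no group described above were chosen here after their values were seen, and none passed edgeR with all libraries. *Litaf*, a regulator of endosomal sorting, had 66.6, 43.6 and 40.8 CPM in MFL and 206, 77.2 and 506 CPM in LM (log2 fold change 2.39, edgeR adjusted p = 0.221), and *Lyst*, which shapes lytic granules, had 148, 152 and 157 CPM in MFL and 487, 298 and 226 CPM in LM (1.15, adjusted p = 0.221). *Il4ra*, the receptor chain of IL-4 and IL-13, had 92.2, 106 and 109.8 CPM in MFL and 334, 109 and 493 CPM in LM (1.604, adjusted p = 0.255). All LM libraries of *Litaf* and *Lyst* lay above MFL, while *Il4ra* overlapped between the sites.

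Further genes among the 50 were chosen in the same way. *Kdm6b*, a histone demethylase, had 358, 316 and 348 CPM in MFL and 1607, 464 and 2507 CPM in LM, *Dot1l*, a histone methyltransferase, had 78.8, 128 and 116 CPM in MFL and 297, 123 and 624 CPM in LM, and *Crem*, a cyclic AMP responsive factor, had 22.8, 16.0 and 13.9 CPM in MFL and 75.7, 34.2 and 159 CPM in LM. Their edgeR adjusted p-values were 0.274, 0.549 and 0.274 with all libraries. *Dgat1*, which makes triglycerides, had 18.1, 25.6 and 32.0 CPM in MFL and 119.8, 26.4 and 302 CPM in LM, and *Zc3h12a*, which degrades cytokine transcripts, had 85.5, 93.2 and 117 CPM in MFL and 354, 139 and 445 CPM in LM.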
